A study of Mus musculus with 12 samples.

Results

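Acod1 and Hcar2 are a pair of genes of myeloid cells, an enzyme that makes and a receptor that senses small metabolic acids. They are the 2 members described here, out of 37147 genes or accessions on one array design and 45356 on the other. The members were all probes whose accession belongs to either gene, NM_008392 for Acod1 (formerly Irg1) and NM_030701 for Hcar2. That gave 3 probes on the first design and 2 on the second. The pair was chosen by its measured levels before the operation in ZEB1-overexpressing and wild-type microglia, so those values are given as a description and carry no test.

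Acod1 encodes the mitochondrial enzyme that makes itaconate from cis-aconitate, an intermediate of the tricarboxylic acid (TCA) cycle. In macrophages it is induced by Toll-like receptor and interferon signals, and itaconate inhibits succinate dehydrogenase and activates the antioxidant factor NRF2 (Nfe2l2). Hcar2 encodes a Gi-coupled receptor on macrophages, neutrophils and adipocytes that is activated by the ketone body beta-hydroxybutyrate, by butyrate and by niacin. In mice it is known to mediate effects of those ligands after stroke.

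Microglia of male mice aged 8 weeks were enriched by magnetic sorting for CX3CR1 and measured on single-colour arrays, 2 arrays for each of 6 groups. After transient middle cerebral artery occlusion (tMCAO, a model of ischaemic stroke) the groups were overexpression of ZEB1, knock-down of ZEB1 and wild type. The same 3 genotypes were also measured before the operation. They are written OE, KD and WT, with "after" or "before", and these names mean the arrays labelled so. The labels give neither the promoter behind the overexpression or knock-down nor the time after the operation, nor whether the 2 arrays of a group came from separate animals. The p-values therefore reflect the spread of the arrays at hand, and that spread may be technical.

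OE after and WT after lay on a slide of 4 arrays, and KD after, OE before, KD before and WT before on a slide of 8 arrays of another design. Groups were tested only within a slide. A level is the log2 processed intensity of a probe minus that of the 75th percentile of its array, so that 0 is the 75th percentile, and it is a measure of one probe that cannot be set against another probe. The 75th percentile lay between 1078 and 1515 intensity units on the 4-array slide and between 2566 and 3702 on the 8-array slide. The main fit leaves out spots marked by the scanner software as uneven or outlying, and each result that this touches is given with them as well. Marked spots made up 7.49% to 21.7% of an array on the 4-array slide. On the 8-array slide they made up 18.2% to 23.7% of KD after and OE before arrays, which lay in columns 1 and 2, and 1.03% to 3.28% of KD before and WT before arrays in columns 3 and 4. Side of the slide and group cannot be told apart in KD after against KD before or in OE before against either other group. On the 4-array slide OE after lay in row 2 and WT after in row 1. KD before and OE before lay in row 2 of the 8-array slide, and KD after and WT before in row 1. Row and group cannot be told apart in OE after against WT after or in KD after against KD before. The same holds for KD before and for OE before against WT before.

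All 12 microglia markers, such as Cx3cr1, P2ry12 and Tmem119, were well above background on all 12 arrays. The same held for all 8 neuron, 8 oligodendrocyte lineage and 6 astrocyte markers, so being well above background does not set microglia apart here. The manipulated gene was looked at first. On the 4-array slide the only Zeb1 probe had levels of -0.08 and 0.56 in OE after, against 0.12 and 0.41 in WT after, with marked spots kept. The OE and WT arrays overlapped (log2 difference -0.02 ± 0.29 SE, limma adjusted p = 0.974). On the 8-array slide the Zeb1 probe chosen with marked spots kept had levels of -0.66 and -0.67 in KD after, -0.28 and -0.36 in OE before, -0.11 and -0.79 in KD before and -0.57 and -0.59 in WT before. OE before lay above WT before by 0.26 ± 0.23 (limma adjusted p = 0.771), and KD before exceeded WT before by 0.13 ± 0.23 (limma adjusted p = 0.984). Zeb1 therefore did not separate the genotypes in a test on these arrays. The position of these probes relative to the overexpressed or knocked-down part of the transcript is not stated in the labels or headers.

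The start region of Acod1 is shown because signals known to induce the gene act through factors that bind such sequences. Of the 2 members, 1 had an entry in the RefSeq promoter table. The 250 bases before the Acod1 start lie at chr14:103046762-103047011 on the + strand of GRCm38.p6. In the RefSeq gene table Hcar2, on chromosome 5, stands beside its relative Hcar1, which encodes the lactate receptor. Capitals mark matches to 3 motifs, which were chosen after the sequence had been read.
Acod1: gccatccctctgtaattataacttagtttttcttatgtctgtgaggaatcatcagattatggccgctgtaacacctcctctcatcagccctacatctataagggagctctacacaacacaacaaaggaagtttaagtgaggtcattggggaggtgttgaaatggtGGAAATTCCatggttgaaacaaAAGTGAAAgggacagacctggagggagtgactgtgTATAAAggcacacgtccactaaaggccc

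The letters GGAANTTCC, an NF-kappaB-type site, matched 85 to 77 bases before the start. Of 32851 promoter windows of the same length in the table, 0.813% hold it. The letters AANNGAAA, the core of sites for interferon regulatory factors, matched from 63 to 56 bases before the start and are found in 21.3% of the windows. The letters TATAAA matched from 28 to 23 bases before the start, as they do somewhere in 12.4% of the windows. Both strands were searched, and the 3 matches do not overlap. A match describes letters and not binding, and no binding data belong to these arrays.

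After tMCAO, Acod1 was higher in OE than in WT. The probe A_51_P123625 was printed 10 times on each array of the 4-array slide. With all spots its level was 2.29 and 2.93 in the OE after arrays, against 0.39 and 0.77 in the WT after arrays. Their mean processed intensities were 6194 and 11600 units in OE after and 1444 and 2354 units in WT after. Both OE arrays lay above both WT arrays, and the gap between the groups was wider than the spread within either.

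The spots within an array gave the same order. They ran from 1.93 to 2.46 and from 2.72 to 3.13 on the OE after arrays, and from -0.03 to 0.97 and from 0.43 to 1.03 on the WT after arrays. No OE spot overlapped a WT spot. Spots of an array share 1 labelled sample and are not replicates. Of the 10 spots, 10 and 5 were marked on the OE after arrays and 4 and 7 on the WT after arrays, so that replicate 1 of OE after has no unmarked spot.

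**Figure D1:**
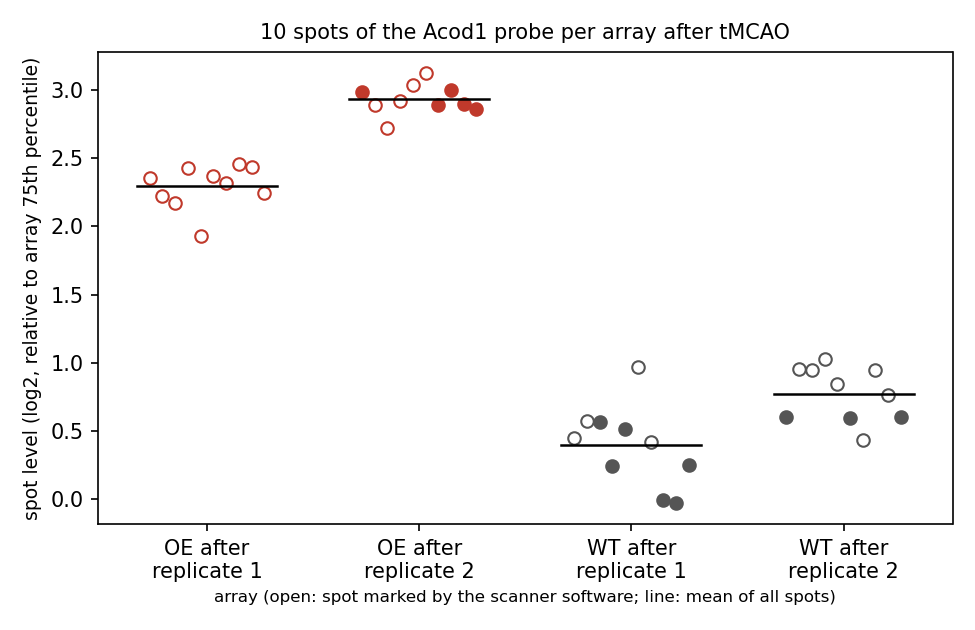
Level of each of the 10 Acod1 spots (log2, with the 75th percentile of the array at 0, vertical axis) on the OE after arrays at the left and the WT after arrays at the right; open circles are marked spots and lines are means of all spots. The OE spots lie at 1.93 or above and the WT spots at 1.03 or below.

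With marked spots left out, Acod1 rose by a log2 difference of 2.50 ± 0.33 SE (95% interval 1.69 to 3.31; limma adjusted p = 0.0281), which rests on 1 OE after and 2 WT after arrays. When they were kept, the difference was 2.03 ± 0.30 over 2 arrays of each group (interval 1.33 to 2.73; limma adjusted p = 0.0215). The test called 2.29% of all genes with marked spots left out and 3.20% with them kept. Hcar2 had no value with marked spots left out and was not called with them kept, whereas Acod1 was called either way. The call did not hold without the filter on dim probes, where limma's adjusted p was 0.192 with marked spots left out and 0.135 with them kept and no gene was called. It also did not hold without either WT after replicate, with adjusted p values of 0.180 without replicate 1 and 0.0892 without replicate 2, or 0.125 and 0.0542 with marked spots kept.

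Hcar2 was measured by a pair of probes on that slide, the brighter A_51_P488739 and the dimmer A_55_P2038882. The brighter probe had levels of 1.60 and 2.05 in OE after, against 1.34 and 0.76 in WT after. Both OE arrays were above both WT arrays, by a gap smaller than the distance between the WT arrays. Its spot was marked on replicate 1 of OE after and on both WT after arrays, so the main fit gives it no value. When marked spots were kept, the log2 difference was 0.78 ± 0.30 (interval 0.08 to 1.48; limma adjusted p = 0.184), which did not pass the test.

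The dimmer Hcar2 probe had levels of -0.86 and -0.48 in OE after, against -1.65 and -1.86 in WT after. The groups did not overlap, and the single mark was on replicate 1 of OE after. In the fit with a row for each probe, the difference was 1.28 ± 0.33 with marked spots left out (limma adjusted p = 0.0973) and 1.09 ± 0.26 with them kept (interval 0.48 to 1.69; limma adjusted p = 0.0683). Both probes were higher in OE and neither passed the test. The intervals with marked spots kept overlap each other.

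**Figure D2:**
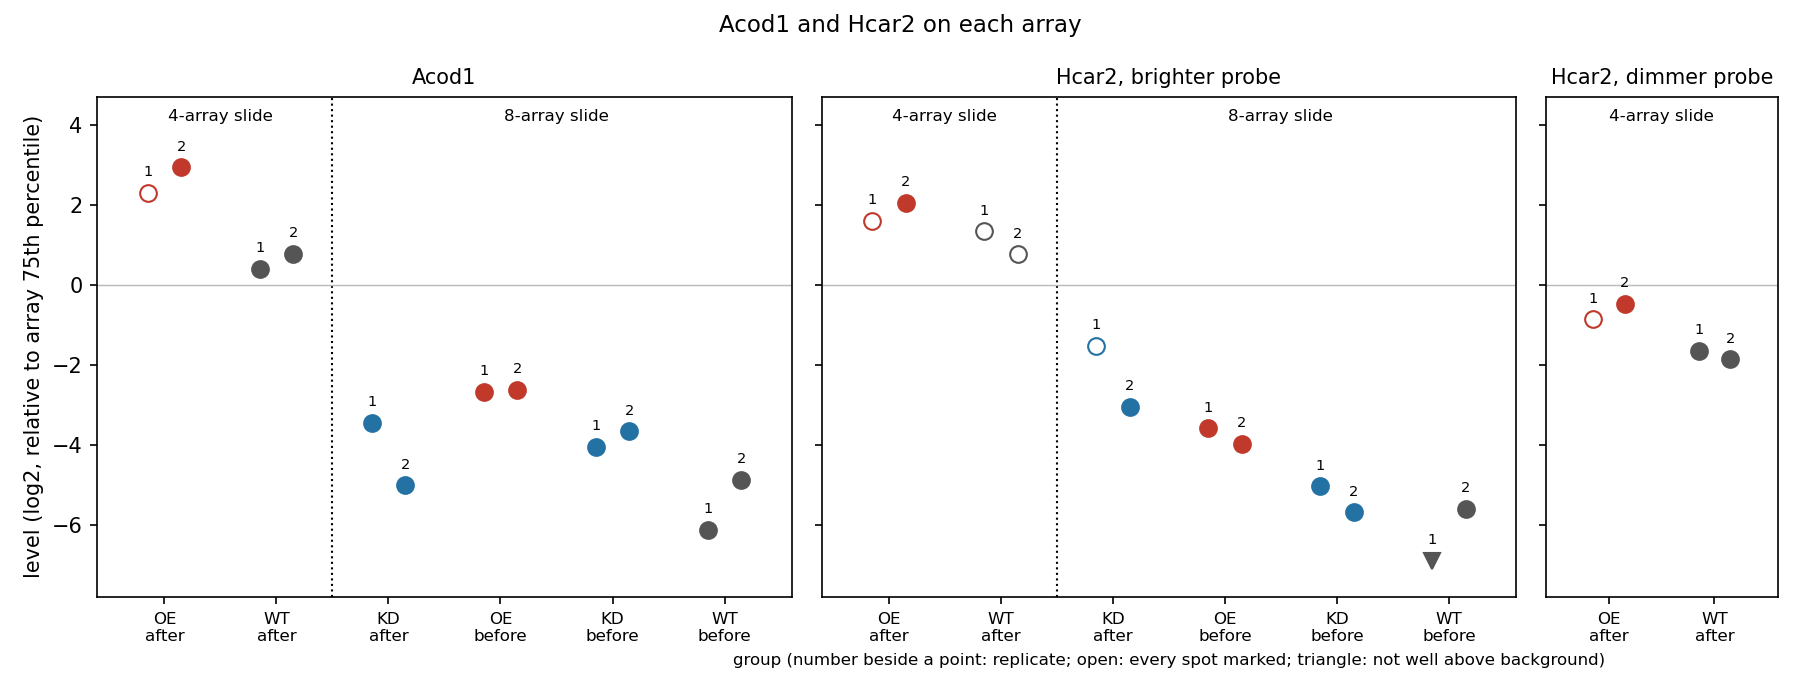
Level of Acod1 and of each Hcar2 probe on every array (log2, with the 75th percentile at 0), with groups along the horizontal axis and the slides separated by a dotted line; open symbols have only marked spots, and the triangle is not well above background. Acod1 is highest in OE on each slide, whereas Hcar2 on the 8-array slide is highest in KD after.

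Before tMCAO the Acod1 probe had 1 spot per array, none of them marked. Its level was -2.67 and -2.63 in OE before, -4.04 and -3.66 in KD before and -6.11 and -4.87 in WT before. OE before was the highest and the tightest pair, and no array of one genotype overlapped another genotype. These values helped to choose the gene: OE before exceeded WT before by a log2 difference of 2.84 ± 0.59 SE and KD before by 1.2 ± 0.59. The same contrasts called 0% of all genes with OE against WT and 0% with OE against KD at an adjusted p under 0.05, and nothing is read from that for the members.

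KD before against WT before shares the WT arrays with the contrast that chose the pair, so it too is given as a description with no test. Acod1 was 1.64 ± 0.59 SE higher in KD before. That comparison called 0% of genes, although 2662 of 30309 had an unadjusted p under 0.05 in limma, and nothing is read from it for the members. Without replicate 1 of WT before the difference was 1.02, and without replicate 2 it was 2.27.

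Between the knock-down arrays after and before tMCAO, Acod1 showed no difference that passed the test. It had levels of -3.45 and -5.0 in KD after, against -4.04 and -3.66 in KD before. The KD after arrays lay on either side of the KD before arrays. The difference was -0.38 ± 0.59 (interval -1.81 to 1.06; limma adjusted p = 0.674), and without replicate 2 of KD after it was 0.40. Ordered by mean level on that slide, OE before came first at -2.65 ± 0.03, then KD before at -3.85 ± 0.27, KD after at -4.23 ± 1.1 and WT before at -5.49 ± 0.88 (SD, n = 2 each). KD before and KD after overlapped, as did KD after and WT before.

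Hcar2 followed another order on the 8-array slide. The probe A_51_P488739 had levels of -1.53 and -3.05 in KD after, against -5.03 and -5.68 in KD before. Both KD after arrays were above both KD before arrays. The spot of replicate 1 of KD after was marked. With marked spots left out the difference was 2.31 ± 0.59 with 1 KD after and 2 KD before arrays (interval 0.81 to 3.81; limma adjusted p = 0.0539), and it did not pass the test.

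With marked spots kept, Hcar2 rose by 3.07 ± 0.61 over 2 arrays of each group (interval 1.59 to 4.55; limma adjusted p = 0.0245). The test called 18.2% of all genes with marked spots left out and 16.6% with them kept, so a call in this comparison is common. In that fit the call was lost without the dim filter (adjusted p = 0.0503), without replicate 1 of KD after (2.31, adjusted p = 0.0744), and without replicate 1 (adjusted p = 0.0813) or replicate 2 (adjusted p = 0.129) of KD before.

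Before tMCAO Hcar2 had levels of -3.58 and -3.96 in OE before, -5.03 and -5.68 in KD before and -6.89 and -5.60 in WT before. OE before lay above every KD before and WT before array, and KD before and WT before overlapped. Replicate 1 of WT before was not well above background, at 30.2 intensity units. As a description, OE before exceeded WT before by 2.47 ± 0.48 SE and KD before by 1.58 ± 0.48. KD before exceeded WT before by 0.89 ± 0.48 in the same fit. Both differences from WT before use the array that was not well above background.

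The order of mean Hcar2 levels with marked spots kept was KD after at -2.29 ± 1.08, OE before at -3.77 ± 0.27, KD before at -5.36 ± 0.46 and WT before at -6.25 ± 0.91 (SD, n = 2 each). KD after and OE before did not overlap, but the 2 KD after arrays were further apart than their lower array was from OE before. The neighbours KD before and WT before overlapped.

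**Figure D3:**
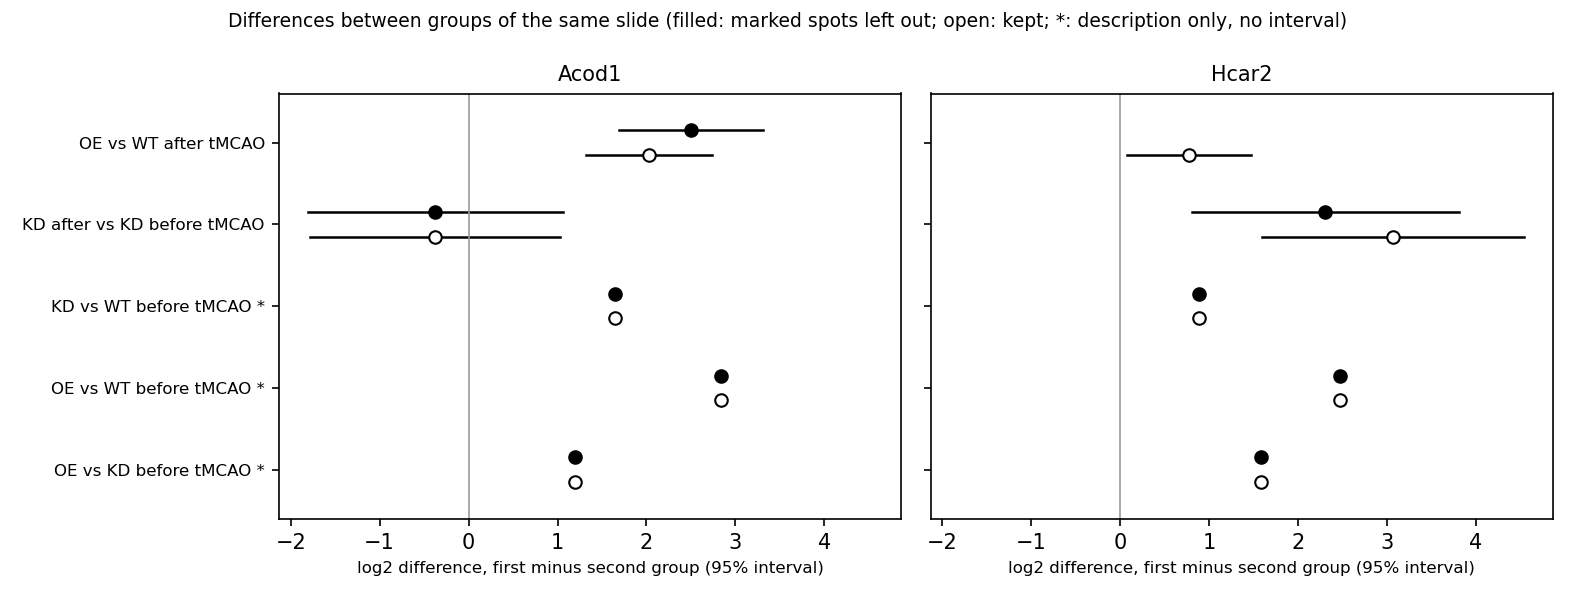
Log2 difference of each named pair of groups (first minus second) for Acod1 and Hcar2, with 95% intervals; filled points leave marked spots out and open points keep them. Rows with an asterisk use arrays that helped to choose the genes and show points only. The Acod1 intervals for OE vs WT after tMCAO lie above 0, and the Acod1 interval for KD after vs KD before tMCAO runs from -1.81 to 1.06.

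Across the slides, time and slide cannot be told apart for OE or WT, and the values stand side by side without a test. Acod1 was at 2.29 and 2.93 in OE after and at -2.67 and -2.63 in OE before, and at 0.39 and 0.77 in WT after and -6.11 and -4.87 in WT before. Over 17438 shared probes well above background on all 12 arrays, WT after minus WT before had a median of 0.30, with the 5th and 95th percentiles at -2.0 and 3.27. It was 6.08 for the Acod1 probe, whose low WT before values helped to choose the gene. The shared Hcar2 probe is not among these probes, since 1 WT before array was not well above background. The OE minus WT difference in Acod1 was 2.03 after tMCAO with marked spots kept and 2.84 before it, and whether these differ was not tested.

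Both members are also expressed by infiltrating myeloid cells, and fewer cells of a type and less RNA per cell cannot be told apart in these bulk samples. On the 4-array slide the neutrophil markers summed to 129 to 137 times the 75th percentile in OE after. In WT after the sum was 107 to 127 times, and all 13 markers on that design were well above background on every array. The test called 1 of 13 with marked spots kept and 1 of 7 with them left out, against 3.20% and 2.29% of all genes. That marker was Elane, 2.01 higher in OE after (limma adjusted p = 0.0392 and 0.0476 in that order). Monocyte and border macrophage markers summed to 44.1 to 44.6 in OE after and 31.5 to 34.9 in WT after, with 9 of 9 and 8 to 9 of 9 markers well above background. Microglia markers summed to 119 to 137 in OE after and 139 to 142 in WT after. Endothelial and mural markers summed to 10.7 to 11.2 in OE after and 19.1 to 20.9 in WT after. In the test 3 of the 10 fell with marked spots kept, against 3.20% of all genes called. With them left out 0 of 8 fell, against 2.29%. Immediate early and dissociation genes summed to 41.7 to 50.3 in OE after and 30.4 to 37.5 in WT after. With marked spots kept, 11 of 11 had a positive difference and none was called, which lies near the 3.20% of all genes. The part of these marker lists in the Acod1 and Hcar2 differences was not tested.

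On the 8-array slide the monocyte and border macrophage sum was 26.9 to 28.2 in KD after and 9.15 to 9.48 in KD before, with 10 of 10 markers well above background on each array. The neutrophil sum was 27.5 to 29.5 in KD after and 14.7 to 15 in KD before. The median level of the neutrophil markers overlapped, at -1.89 and -2.26 in KD after and -2.07 and -2.35 in KD before. The endothelial and mural sum was 20.5 to 20.7 in KD after and 14.3 to 14.9 in KD before. Sums were also higher in KD after for microglia (57.1 to 64.3, against 39.8 to 40.7), oligodendrocyte lineage (51.3 to 52.5, against 37.1 to 38.1) and astrocytes (30.1 to 32.5, against 23.1 to 23.4). They were lower for neurons (45.1 to 50.6, against 57.1 to 57.6) and erythroid cells (2.65 to 4.76, against 6.19 to 10.6). The sums of the remaining lists overlapped. Ccr2, the chemokine receptor of inflammatory monocytes, was at 0.08 and -2.02 in KD after, against -3.97 and -4.43 in KD before. Ccr2, Acod1 and Hcar2 were higher in replicate 1 of KD after than in replicate 2, as was the monocyte sum (28.2 and 26.9). The neutrophil sum was lower in replicate 1 (27.5 and 29.5), but the median level of the neutrophil markers was higher there. In OE before the neutrophil sum was 17.1 to 17.5 and the monocyte sum 9.47 to 10.3, and in WT before these sums were 13.4 to 22.9 and 10.7 to 11. WT before replicate 2, the array with the higher Acod1 and Hcar2, had the higher neutrophil sum and the lower monocyte sum. However, the median level of the monocyte and border macrophage markers was higher in replicate 2 of WT before, as was Ccr2. The part of these cells in the results was not tested.

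Beside the members, 103 genes of 9 lists were read out, covering the enzymes around itaconate, its transport and targets, inducers of Acod1, Hcar2 signalling and related receptors. In OE against WT after tMCAO, 58 of them could be tested with marked spots left out, of which 1 rose and 0 fell (1.72%, against 2.29% of all genes). That gene was Tlr4, the lipopolysaccharide receptor and an inducer of Acod1, with a log2 difference of 1.30 ± 0.23 (limma adjusted p = 0.0444) and levels of -0.89 and -0.94 in OE after, against -2.20 and -2.24 in WT after. When marked spots were kept, 6 of 97 rose and 0 fell (6.19%, against 3.20%). The median over these genes was 0.38 with marked spots left out and 0.03 with them kept, against -0.10 for all genes tested in either fit.

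The inducer list held 5 of the 6 genes that rose in OE after with marked spots kept, of 18 tested, and its median difference was 0.63. The largest was Irf7, an interferon-induced regulator of the interferon response, at 0.98 and 1.81 in OE after, against -2.74 and -2.26 in WT after, a log2 difference of 3.89 (limma adjusted p = 0.00600). The adaptor Myd88 (1.32), Tlr4 (1.30) and the interferon-induced factor Irf1 (1.26) also rose. Gnai3, a Gi subunit of the kind Hcar2 couples to, was the only gene called on the list of hydroxycarboxylic acid receptors and signalling, with a difference of 1.28 (limma adjusted p = 0.0468), and 9 of that list were tested.

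Of the enzymes next to Acod1 in the TCA cycle, none passed the test. On that list of 15 genes, Acod1 was the only one called in OE against WT after tMCAO with marked spots kept, where 3.20% of all genes were called, and the list's median was -0.06 with marked spots kept. The cis-aconitate-handling enzyme Aco1 differed by 0.26, citrate synthase Cs by 0.23 and isocitrate dehydrogenase Idh2 by -0.01 between OE and WT after tMCAO. The list of itaconate transport, breakdown and receptor had 0 of 12 called with a median of -0.07, and the Nfe2l2 (NRF2) pathway had 0 of 14 with a median of 0.06. With 3.20% of all genes called, counts of 0 in lists of this size lie near the background, and the same holds for the counts of 0 that follow. The NRF2 target Nqo1 differed by 1.0 (limma adjusted p = 0.0762) with marked spots kept.

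Genes that itaconate is known to restrain or induce in macrophages were also 0 of 6 called in OE against WT after tMCAO, with a median of 0.52 with marked spots kept. Atf3, a stress-induced repressor, differed by 1.28 (limma adjusted p = 0.0854), and the cytokine genes Il1b and Il6 by 0.64 and 0.46. The prostaglandin arm, through which Hcar2 acts in skin, had 0 of 9 called. Among other metabolite receptors 0 of 5 were called, with a median of 1.06; the short-chain fatty acid receptor Ffar2 differed by 1.07 (limma adjusted p = 0.0959) and the medium-chain fatty acid receptor Gpr84 by 0.03. The ketone body list had 0 of 11 called.

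In KD after against KD before, 15 of 60 list genes rose and 0 fell with marked spots left out (25.0%, against 18.2% of all genes), and 19 of 99 rose with them kept (19.2%, against 16.6%). The inducer list gave 7 of 16 with marked spots left out, among them the lipopolysaccharide co-receptor Cd14 at 2.12 ± 0.19 (limma adjusted p = 0.00417), Irf8 at 1.76, Myd88 at 1.67, the interferon signal factor Irf9 at 1.30, the adaptor Ticam1 at 1.16 and the interferon gamma receptor Ifngr1 at 0.68. Cd14 had levels of 0.84 and 0.33 in KD after, against -1.60 and -1.47 in KD before. Acod1 itself, at -0.38, was not called.

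The list of itaconate-responsive regulators gave 1 of 4 called with marked spots left out, the lysosomal regulator Tfeb at 0.80. That lies near the 18.2% of all genes called. With marked spots kept the list gave 4 of 6, against 16.6% of all genes. Atf3 then rose by 3.72 (limma adjusted p = 0.0108), with levels of 0.58 and -0.27 in KD after, against -3.48 and -3.66 in KD before. Il6 rose by 3.54 (limma adjusted p = 0.00505), with 1 of the KD before arrays well above background, and Nfkbiz, which encodes an inducible NF-kappaB cofactor, rose by 1.5 (limma adjusted p = 0.0444).

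Of the other metabolite receptors, 2 of 5 tested rose in KD after with marked spots left out, against 18.2% of all genes. They were Sucnr1 and Gpr84. The succinate receptor Sucnr1 was not well above background on any KD before, OE before or WT before array. It entered the test only through KD after, where it is high, so nothing is read from its call here or in the counts over all lists. Sucnr1 was at least 5.88-fold higher in KD after than in KD before. That is a bound on 1 unmarked KD after array against the lowest signal well above background. Gpr84 rose by 2.41 (limma adjusted p = 0.0312), with levels of 0.07 and -1.33 in KD after, against -2.87 and -3.22 in KD before. The fatty acid receptors Ffar2 and Ffar3 differed by 0.74 and 1.06 and did not pass the test, and Gpr35, also not called, was not well above background on either KD after array. Hpgds, a prostaglandin D2 synthase of the kind that acts downstream of Hcar2, rose by 2.83 (limma adjusted p = 0.0121), and the NRF2 target Hmox1, which makes haem oxygenase 1, rose by 2.88 (limma adjusted p = 0.00513). The neighbouring receptor gene Hcar1 had levels of -4.75 and -4.69 in KD after, against -4.75 and -4.73 in KD before, a difference of 0.02 (limma adjusted p = 0.942). The mitochondrial citrate carrier Slc25a1 rose by 0.83 and the adenylate cyclase Adcy7 by 0.88, and the NRF2 antagonist Bach1, at 0.62, passed with marked spots left out (limma adjusted p = 0.04999) but not with them kept (adjusted p = 0.0600). The TCA list gave 0 of 7 called and the ketone body list 0 of 7.

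**Figure D4:**
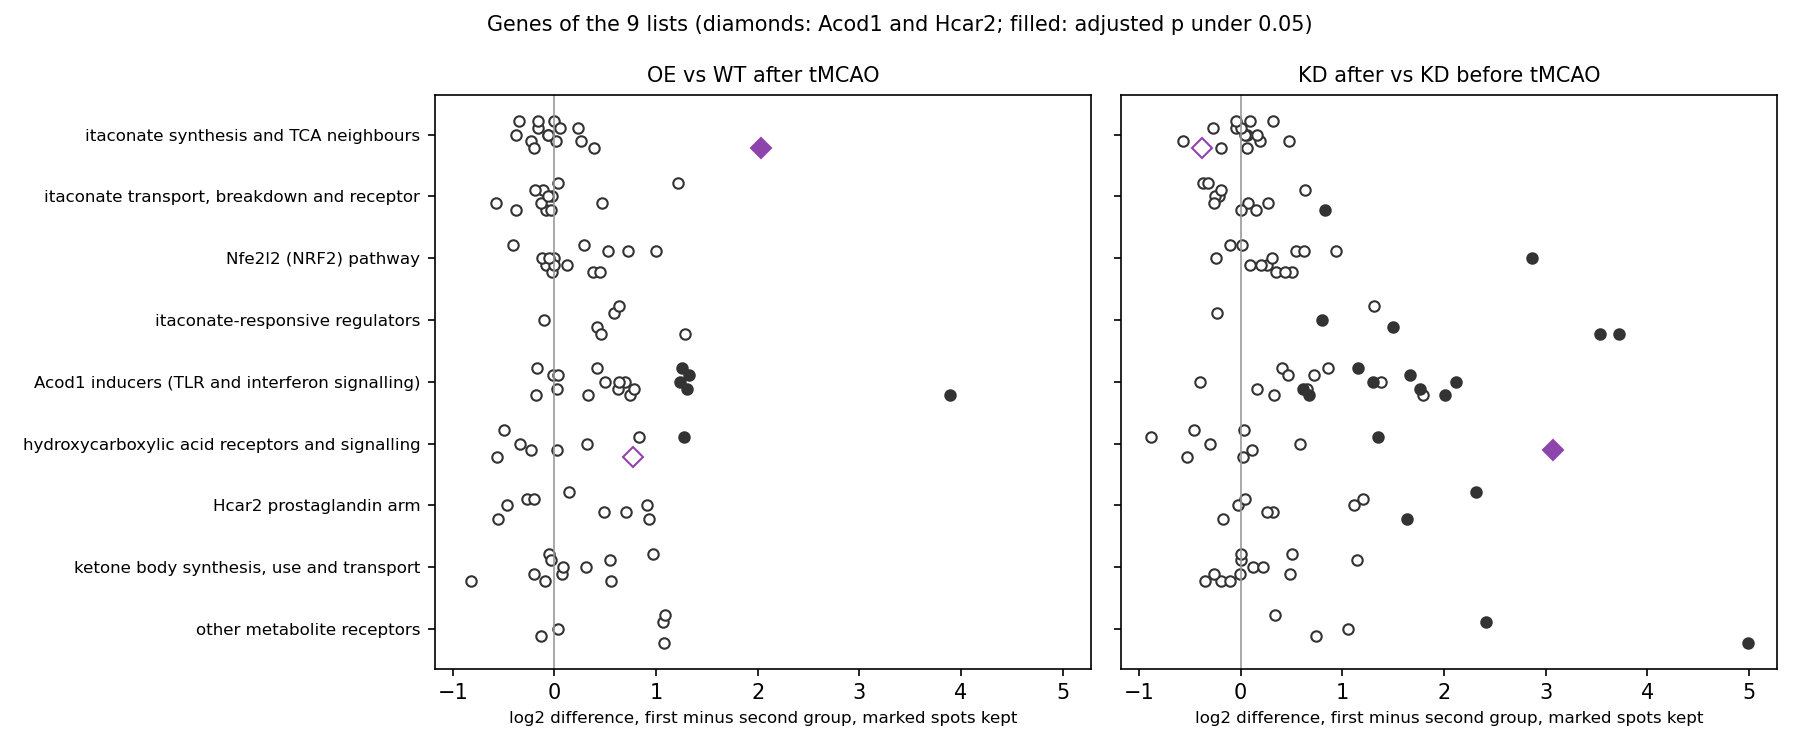
Log2 difference (horizontal axis, marked spots kept) of every tested gene of the 9 lists in OE vs WT after tMCAO and in KD after vs KD before tMCAO; diamonds are Acod1 and Hcar2, and filled symbols have an adjusted p under 0.05. Acod1 stands at 2.03 on the left and -0.38 on the right, and Hcar2 at 0.78 and 3.07; the point of Sucnr1 rests on KD before arrays not well above background.

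Before tMCAO limma called 0% of all genes in each comparison, and so 0 of the 98 list genes tested in KD against WT and 0 of 73 in OE against WT and in OE against KD, with marked spots left out. Their medians were -0.10 in KD against WT, -0.02 in OE against WT and 0.15 in OE against KD, against -0.07, -0.01 and 0.10 over all genes tested. Nothing is read from these counts for the lists.

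The genes whose levels followed each member were ranked by Pearson's r over the 8 arrays of the 8-array slide, which share a slide and fall into 4 groups, so r is a description of these arrays. Of 17947 genes, those most like Acod1 were E2f6 (r = 0.923), Larp1 (0.923), Plvap (0.906), Kremen1 (0.896) and Tuft1 (0.885). Those most like Hcar2 were Ror2 (r = 0.985), Ip6k3 (0.98), Clec4e (0.973), Tmem69 (0.970) and F10 (0.969). The 2 sets shared no gene, and r between Acod1 and Hcar2 was 0.536 over the same 8 arrays. These include the OE before and WT before arrays by which the pair was chosen. Each set was picked for following its member, so a shared pattern on these arrays is built in.

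Clec4e, which encodes the myeloid pattern receptor Mincle, had levels of -3.65 and -4.91 in KD after, -5.32 and -6.17 in OE before, -7.68 and -7.47 in KD before and -9.07 and -6.89 in WT before, and was well above background on 3 of those arrays. It passed the filter only through KD after, where it is high, so nothing is read from its place in the ranking. On the 4-array slide, which had no part in the ranking over 8 arrays, Clec4e had levels of 0.57 and 1.28 in OE after. In WT after they were -1.02 and -0.73. It rose there by 1.80 with marked spots kept, in the fit with a row for each probe (limma adjusted p = 0.0323). With a row per gene that test called 3.20% of all genes, and nothing is read from how many of the genes in these sets were called. The other 4 genes most like Hcar2 were not called on that slide, with OE minus WT differences of -0.17 for Ror2, 0.01 for Ip6k3, 0.52 for Tmem69 and -0.12 for F10. Of those most like Acod1 none was called either, with -0.18 for E2f6, -0.06 for Larp1, -0.94 for Plvap, 0.41 for Kremen1 and 0.27 for Tuft1. Over all 12 arrays, centred within each slide, Kremen1 (0.894), Tuft1 (0.860), Sephs2 (0.832), Ppif (0.822) and Zbtb39 (0.816) came closest to Acod1, of 12959 genes. P2ry2 (0.952), Uap1l1 (0.950), Clec4e (0.946), F10 (0.933) and Cenpo (0.932) came closest to Hcar2.

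**Figure D5:**
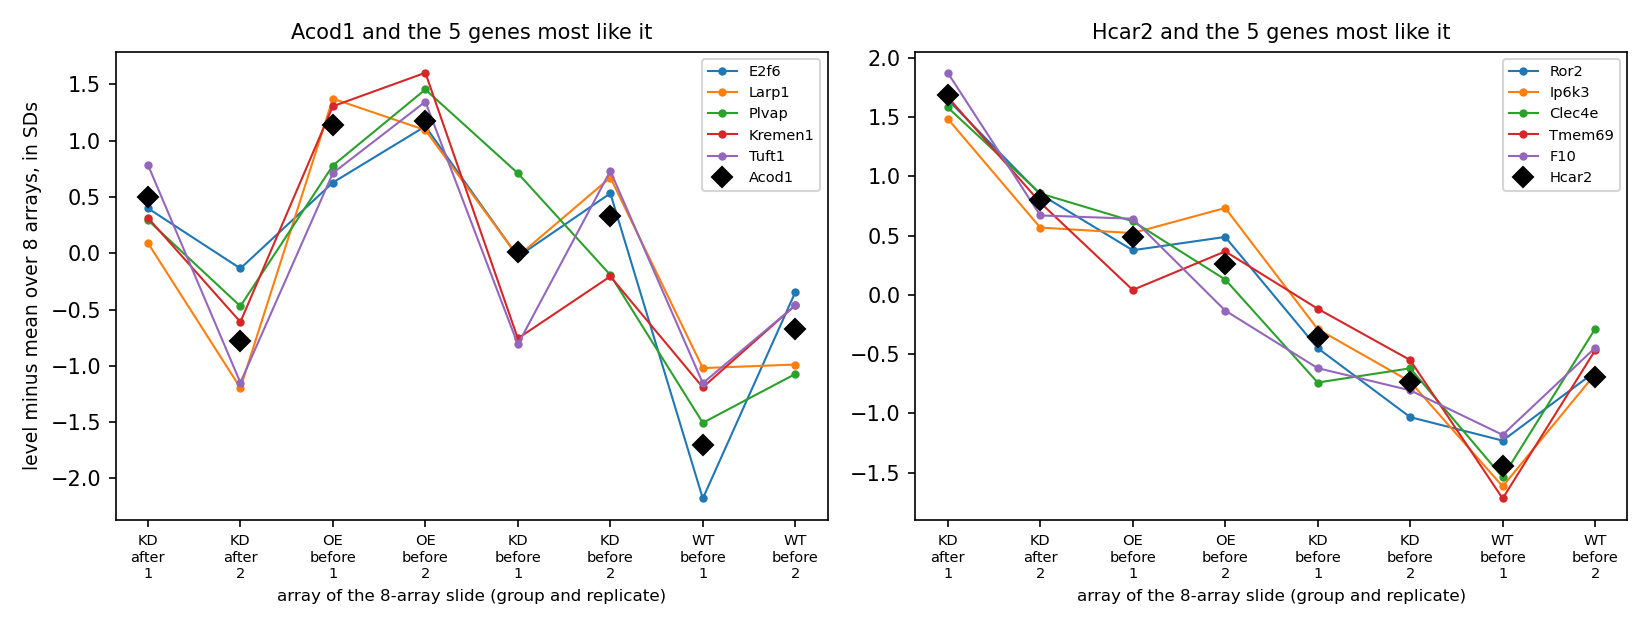
Level minus its mean over the 8 arrays, in SDs, for Acod1 and Hcar2 (black diamonds) and the 5 genes most like each on the 8-array slide, with arrays along the horizontal axis. Acod1 and its 5 genes peak in OE before, and Hcar2 and its 5 genes peak in replicate 1 of KD after. The genes were picked for following the member on these arrays, so the shared peaks are built in.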

How the data were processed

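The authors deposited scanner files with linear intensity per spot, background-subtracted and detrended by Agilent Feature Extraction 11.5.1.1 per the file headers (9.1 per the submitters' processing notes). The deposited files also hold yes or no marks (other) per spot, per the file headers. The authors' deposited value tables hold log2 values with each array's 75th percentile at 0. Both KD after columns of that table match the other replicate's scanner file, and replicates here are named by scanner file.

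From these, log2 intensity minus the array's 75th percentile was computed, spots of a probe were averaged, and probes were kept where at least 0.5 of the spots passed the scanner's well-above-background mark throughout 1 or more groups. The probe of highest mean stood for its gene. Groups of a slide were fitted together with limma 3.58.1 in R 4.3.3 (lmFit, eBayes, two-sided) with Benjamini-Hochberg adjustment over all genes, called at 0.05. The code was tested on simulated data. The number of arrays limits the precision.

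Members, lists and tests were chosen with earlier results of these data known. Genes named are the members, Zeb1, of each list the called genes (up to 6) and up to 4 others, and the 5 genes most like each member. Ccr2 was added after its values were seen. KD against WT before tMCAO, planned as a test of the members, is given without one because its WT arrays helped to choose them. Alternatives were other background correction and normalization, filters, probe rows, the value table, fewer groups, a replicate block and left-out replicates. Normexp used the median signal, since the files hold no mean signal column. A called gene of the inducer list is not reported here.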

Additional observations from a re-analysis of the deposited data

How the results depend on the processing

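OE against WT after tMCAO gave 515 calls with marked spots left out: 895 with them kept, 341 with quantile normalization, 0 with no filter (limma; 4732 genes had an unadjusted p under 0.05 with the filter), 940 with a row per probe, 777 with the value table, and 40 to 1233 without 1 replicate. With marked spots kept, the 895 became 437 with normexp, 574 with quantile normalization, 0 with no filter, 1426 per probe and 160 to 2104 without 1 replicate. Its Acod1 difference was 2.50 with no filter (2.03 with marked spots kept; call lost), and 2.33 to 2.67 without 1 replicate (1.71 to 2.35 with marked spots kept).

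KD after against KD before gave 4480 calls, and 7453 with normexp, 2121 with no filter, 2339 with only the 2 groups and 827 to 3807 without 1 replicate. With marked spots kept there were 5062, and 8362, 2416, 2366 and 769 to 4685 under the same settings. Acod1 turned to 0.075 with normexp and ran from -1.16 to 0.40 without 1 replicate. Hcar2 was 3.07 with marked spots kept, 1.57 with normexp and 3.05 with the value table, each past the threshold, and 3.07 with marked spots kept and no filter, where the call was lost; without 1 replicate it ran from 2.31 to 3.83 with marked spots kept.

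KD against WT before tMCAO gave 0 calls, 1 with quantile normalization and 0 to 3 without 1 replicate. OE against WT before gave 0 calls, 6 with quantile normalization and 0 to 2 without 1 replicate, and normexp gave 2.19 for Acod1 and 1.21 for Hcar2. OE against KD before gave 0 calls, 6 with quantile normalization, and normexp gave 0.89 for Hcar2. The cause of these changes was not tested, except that fewer arrays or more genes enter where replicates or the filter were left out. Keeping marked spots as the base of the other settings was chosen after seeing the data.

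Same-numbered replicates had correlations of deviations between -0.19 and 0.26, so the numbers are not shown to pair arrays. With the replicate block, Acod1 in OE against WT after was 2.33 (limma adjusted p = 0.0583), or 2.03 (adjusted p = 0.0173) with marked spots kept, and no other call on a member changed. Hcar2 has no value on the 8-array slide where a probe had to be well above background on every array. Lone arrays left by omitting a replicate are assumed to vary like the other groups.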
